A study of Bos taurus with 2 samples.

Results

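Kinesins are motor proteins that use ATP to move along microtubules. Heavy chains of the kinesin-1 type carry cargo with the help of light chains, kinesin-2 motors carry building material into cilia and flagella, and other families build the spindle, move chromosomes or shorten microtubules. In the testis, microtubule motors work in the divisions of spermatogonia and spermatocytes, in the manchette that shapes the spermatid head, and in the growing sperm tail.

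The kinesin genes were taken by name, as every probe whose gene name on the array is KIF or KIFC followed by a digit, or KLC, for the light chains, followed by a digit. This gave 38 genes of the 32428 gene names on the array, read by 95 probes on 100 spots, in 14 families. The array is a bovine 60k expression array, and the study asked how gene expression in the testis differs between crossbred and Zebu bulls. The crossbred group was Holstein Friesian crossbred with 50 to 75% exotic inheritance and the Zebu group was of the Tharparkar breed. All were adult males of 24 months with no treatment named, and testis was taken by castration on 1 side. RNA of 3 bulls was pooled in each group and labelled with Cy3, so each group is 1 pool on 1 array. There is no replicate check of any difference, no test was possible, and precision is limited by how few arrays there are.

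Signals are log2 of the background-subtracted spot intensity minus the 75th percentile of the array, and a difference is crossbred minus Zebu on that scale. A gene was read from its brightest probe. It was called higher or lower where the difference was 1.5 or more in size, a 2.83-fold change, and the brighter array was well above background by the scanner software. Probes with several spots gave the only technical spread, an SD of 0.33 for a difference over 5960 probes, with a median SD of 0.10. Of the markers that define the tissue, PRM1 of spermatids, CLU of Sertoli cells and INSL3 of Leydig cells were well above background on each array.

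Of the 38 kinesin genes, 34 passed the background filter on both arrays, KIF13A and KIF19 on the crossbred array only, KIF26B on the Zebu array only and KIF12 on neither. KIF19, KIF2B, KIF2C and KIF9 were higher in crossbred testis, which is 4 of the 37 genes well above background on at least 1 array, or 10.8%. Over all gene names filtered in the same way the share was 7.12%. No kinesin gene was lower, against 2.92% of all gene names. A signal not well above background gives only a bound, set at the lowest signal of that array that was well above background, or at the probe's own signal if that is higher. With such signals at their bound the kinesin counts were again 4 and 0, against 6.61% and 2.05% of all gene names. The called share of the kinesins was therefore close to that of the array.

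The kinesins stood further from the array at a smaller difference. At 1 or more, with a signal not well above background held at its bound, 12 kinesin genes were higher, 32.4% of the 37, against 12.3% of all gene names, and 1 was lower, 2.7% against 7.54%. Taken at their measured differences, KIF13A and KIF26B also passed 1, which gave 13 and 2 genes, beside 12.8% and 8.87% of all gene names. At a linear fold of 1.5 the counts were 14 higher and 3 lower, 37.8% and 8.11%, beside 21.4% and 22.2%. The median over the 34 genes was 0.32, with quartiles of 0.00 and 1.22, while that over 22842 gene names was -0.04, with quartiles of -0.49 and 0.45. In all, 25 of the 34 were above 0, or 73.5%, and 47.7% of all gene names were. Because 10 kinesin genes well above background on both arrays lay within 1 spot SD of the 1.5 threshold, the count of 4 moves with small shifts of either array.

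**Figure D1:**
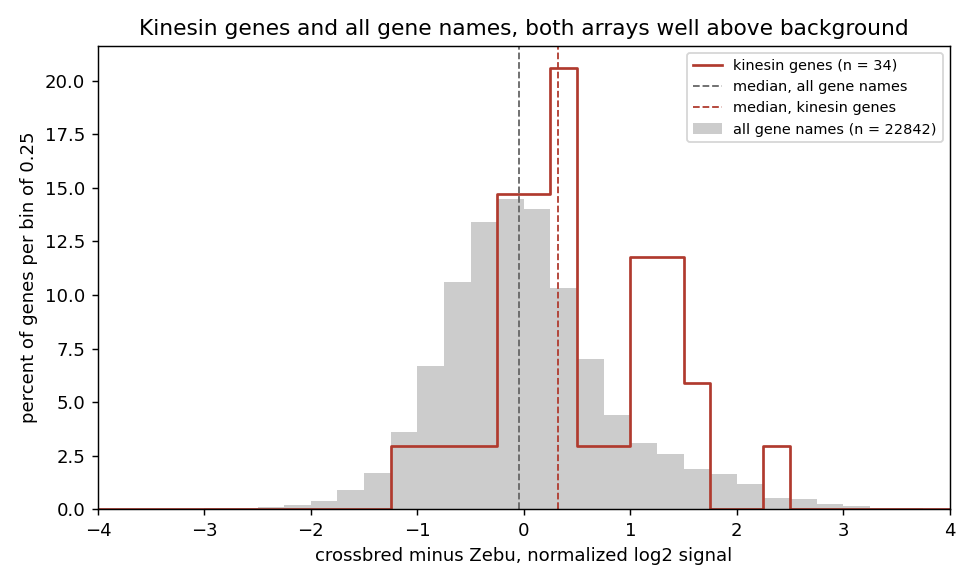
Percent of genes in bins of 0.25 of the crossbred minus Zebu difference (normalized log2 signal), for the 34 kinesin genes (line) and 22842 gene names (bars) well above background on both arrays. The kinesin genes form a group near 0 and a further group above 1, and dashed lines mark the medians of 0.32 and -0.04.

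Probe by probe, 5 kinesin probes were higher and 2 were lower among the 87 well above background on at least 1 array. These are 5.75% and 2.30%, beside 6.14% and 2.99% of all probes. Probes of 1 gene share a target and are not replicates of each other. Among the 24 genes with several probes well above background on both arrays, 15 had all their probes above 0, 4 had all below 0 and 5 had probes on both sides. The SD between probes of a gene was 0.40 for kinesins and 0.51 over 8185 gene names, while the median SDs were close, at 0.234 and 0.235. No kinesin spot lay in the dark patch of the crossbred array, where 544 spots had a median difference of -1.01, or in the bright patch, where 105 spots had 1.1.

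**Figure D2:**
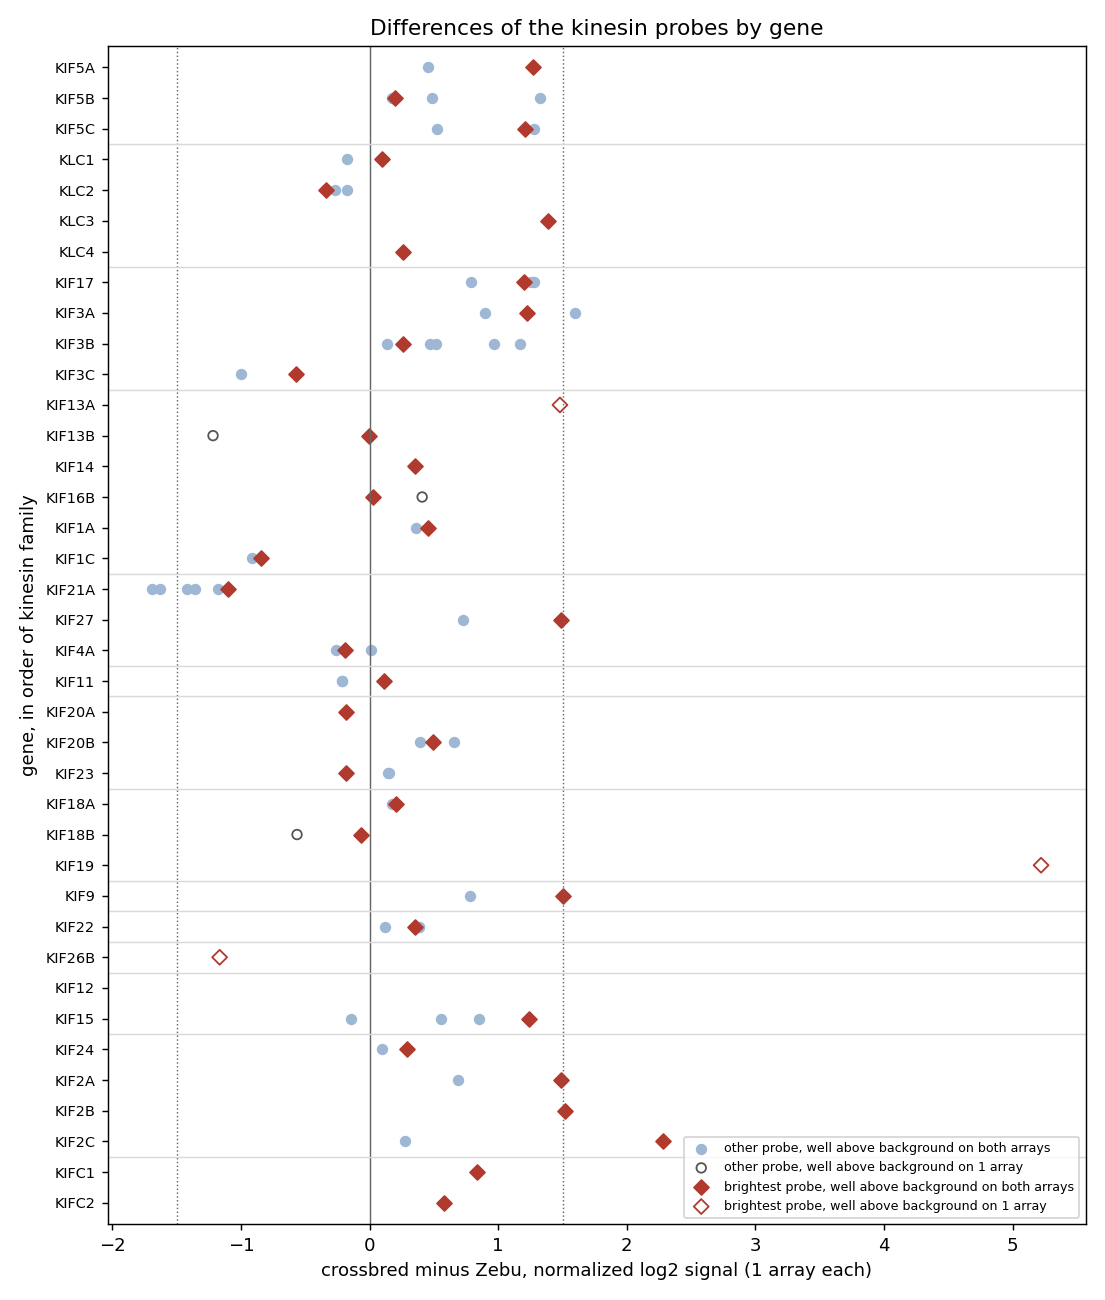
Crossbred minus Zebu difference (normalized log2 signal) of the kinesin probes, by gene in family order, with grey lines between families and dotted lines at 1.5 and -1.5. Diamonds are brightest probes and circles other probes, open where only 1 array was well above background. Probes below background on both arrays are not drawn. KIF21A is the gene with 6 probes that all lie at -1.10 or below.

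The kinesin-13 family, motors that take tubulin off microtubule ends, held 2 of the 4 called genes. Its median was 1.5 over brightest probes and 0.69 over its 7 probes. KIF2C, which corrects faulty attachments of chromosomes to the spindle, read 4.33 on the crossbred and 2.05 on the Zebu array. The difference was 2.28, or 4.87-fold. Its other probe read 2.27 and 2.0, a difference of only 0.27. The gene's call therefore rests on 1 of its 2 probes, and their mean of 1.28 was not past the threshold. By the annotation of the array, the starts of these probes are 408 bases apart, the called probe being the upstream one. It is shown because it holds AATAAA (capitals), the letters of the common poly(A) signal, and 30 bases of it are given. It maps to chr3:108109559-108109618, minus strand, on HGSC Btau_3.1.
KIF2C, upstream probe: gtgacgactgcaAATAAAgatctatttggt
AATAAA was in 10 of the 95 kinesin probes, 10.5%, and in 8.35% of all probes. On the other strand it was in 1.05% and 3.30%.

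KIF2B read 3.59 on the crossbred and 2.07 on the Zebu array. The difference was 1.52 from its only probe, and it fell short of the threshold at 1.44 with quantile normalization and at 1.49 with the percentile taken over detected probes. KIF2A, which acts at spindle poles, read 2.07 and 0.58, a difference of 1.49 that is just under the threshold, and 0.69 at its second probe. With the median of its 18 nearest spots subtracted, the KIF2A value was 1.99 and past it. KIF24, which acts at centrioles, differed by 0.29 and 0.09. All 7 probes of this family were above 0.

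KIF9, a motor of the central apparatus of motile flagella, read 4.26 on the crossbred and 2.76 on the Zebu array. The difference was 1.5. Its second probe read -2.98 and -3.76, a difference of 0.78. The KIF9 call sits at the threshold and was lost with normexp at 1.49, with quantile normalization at 1.34, with the percentile taken over detected probes at 1.48, and with the mean or the median over its probes at 1.14. It was also lost narrowly with the median shift and with the patch spots left out. KIF27, a kinesin-4 relative linked to motile cilia, read 1.03 and -0.46, a difference of 1.49, with 0.72 at the second probe. Both genes thus had differences above 0 at each of their probes, with the smaller one at the probe that is not the brightest. Subtracting the median of the nearest spots took KIF27 to 1.54, past the threshold, and KIF9 to 1.77.

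KIF19, which limits the length of motile cilia, gave the largest difference. Its only probe read -1.23 on the crossbred array and did not pass the background filter on the Zebu array, so crossbred testis was at least 26.1-fold higher. The size depends on the background correction, since with normexp the measured difference of 5.22 became 2.87 and the bound 7.32-fold. The place of this spot on the array moved with the value. Of the 6 spots around it, which read other genes, 4 were also higher by 1.5 or more, with differences from -1.59 to 6.77, and the 18 nearest spots had a median of 1.21. This was the only kinesin probe whose nearest spots had a median beyond 1. With that median subtracted, the measured difference was 4.01 and the bound 11.3-fold, still past the threshold. Without KIF19, 3 kinesin genes were higher. A further probe described as similar to KIF19 was well above background on neither array. Around the KIF2C and KIF9 spots no neighbour was higher by 1.5, and around the KIF2B spot 2 of 6 were.

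Kinesin-2 motors, which carry intraflagellar transport trains, were not called by their brightest probes. KIF3A, a motor subunit of the heterotrimer, read 2.84 on the crossbred and 1.62 on the Zebu array. The difference was 1.22. Its other probes differed by 0.90 and 1.60, and the last of these was past the threshold. That probe fell short of it once the median of its nearest spots, 0.13, was subtracted. KIF3B, the partner of KIF3A, differed by 0.26 at the brightest of 6 probes and by 0.14 to 1.17 over all. KIF3C, an alternative partner of KIF3A, lay on the other side, with -1.28 and -0.70, a difference of -0.58, and -1.0 at its second probe. The remaining KIF3C probe did not pass the filter on either array. KIF17, a homodimeric motor that in spermatids moves a partner of the transcription factor CREM, was picked out after its values were seen. It read 1.41 and 0.21, a difference of 1.20, and its other probes gave 1.28, 1.25 and 0.79.

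KIF21A, a kinesin-4 motor that slows microtubule growth, was the kinesin gene with the lowest difference among those well above background on both arrays. Its brightest probe read -0.26 on the crossbred and 0.84 on the Zebu array. The difference was -1.10 or 2.14-fold. The remaining 5 probes differed by -1.18 to -1.69, and 2 of them, at -1.63 and -1.69, were past the threshold. Their nearest spots had medians of -0.21 and -0.40, and with these subtracted both probes fell short of it. All 6 lay below 0, although the gene is not called by its brightest probe unless the median of the nearest spots, 0.44, is subtracted, which gives -1.54. Its lowest probe, at -1.69, is at row 80 and column 34, beside the dark patch that begins at column 35, and its 18 nearest spots had a median of -0.40. The 4 upstream probes are shown because they read the same direction at separate places along the transcript. On HGSC Btau_3.1, plus strand, they map in this order to chr5:45339964-45340023, chr5:45344724-45344783, chr5:45353230-45353289 and chr5:45365627-45365686, with differences of -1.18, -1.63, -1.69 and -1.36.
KIF21A, probe 1: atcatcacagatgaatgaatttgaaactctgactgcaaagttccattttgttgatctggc
KIF21A, probe 2: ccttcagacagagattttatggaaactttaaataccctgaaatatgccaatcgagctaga
KIF21A, probe 3: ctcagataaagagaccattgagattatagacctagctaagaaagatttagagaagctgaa
KIF21A, probe 4: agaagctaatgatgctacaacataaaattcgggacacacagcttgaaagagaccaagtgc
KIF4A, a kinesin-4 motor of chromosome arms, read -0.56 and -0.37, a difference of -0.19. After the median of the 18 nearest spots was subtracted this value turned to 0.29.

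**Figure D3:**
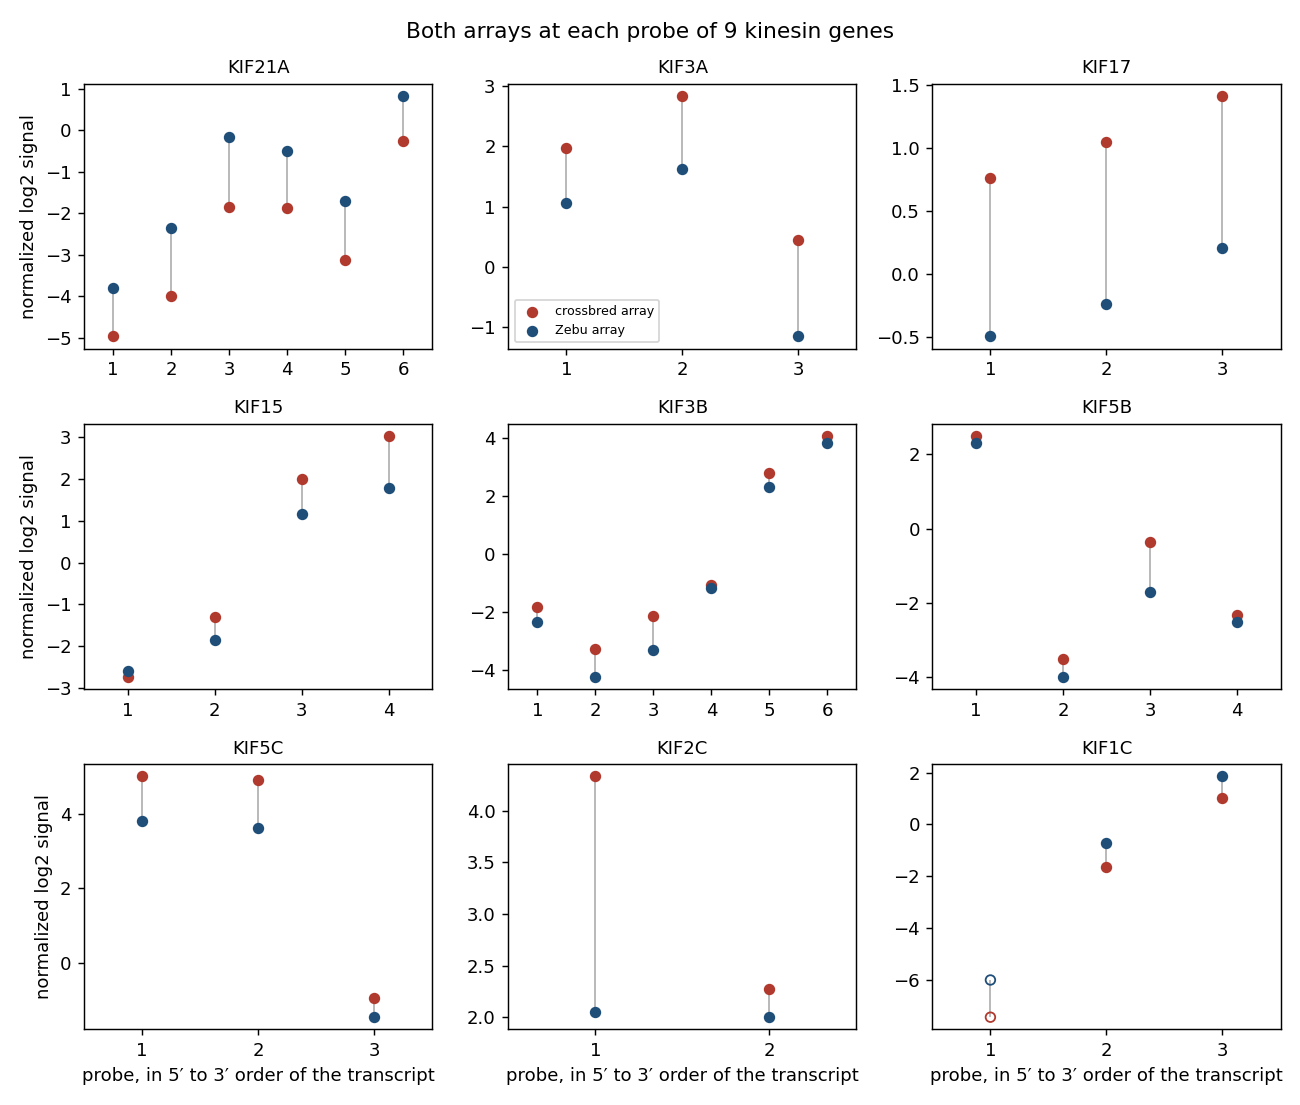
Normalized log2 signal on the crossbred and the Zebu array at each probe of 9 kinesin genes, in 5′ to 3′ order of 1 annotated transcript, each panel with its own axis. Vertical lines join the arrays at a probe, and open points are not well above background. Apart from KIF21A, KIF3A, KIF2C and KIF1C, the genes were picked after their values were seen. The Zebu point is the higher one at every KIF21A probe and the crossbred point at every KIF3A and KIF17 probe drawn, and KIF2C differs at its first probe far more than at its second.

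The kinesin-1 heavy chains, which move vesicles and mitochondria, had no called gene, and all 9 of their probes well above background on both arrays were above 0. Their values were picked out after they were seen. KIF5C read 5.02 on the crossbred and 3.81 on the Zebu array. The difference was 1.21, and 1.28 at a probe that shares 14 bases with the first. Its last probe differed by 0.53. KIF5A differed by 1.27 and 0.45. KIF5B differed by 0.20, 1.33, 0.17 and 0.49, so its probes did not give 1 value.

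The heavy chains resemble each other in sequence, and the following probes are shown because they fall on matching stretches of KIF5A, KIF5B and KIF5C. Capitals mark bases that all 3 have in common, 25 of 44 aligned positions, or 56.8%. The KIF5A and KIF5B probes had 45 of 58 bases in common, KIF5A and KIF5C 34 of 46, and KIF5B and KIF5C 28 of 44. On HGSC Btau_3.1 they map to chr5:60373795-60373853, minus strand, chr13:33255733-33255792, plus strand, and chr2:49492261-49492320, minus strand. At these stretches the differences were 0.45, 0.20 and 1.28.
KIF5A: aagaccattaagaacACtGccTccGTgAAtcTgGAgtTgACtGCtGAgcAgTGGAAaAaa
KIF5B: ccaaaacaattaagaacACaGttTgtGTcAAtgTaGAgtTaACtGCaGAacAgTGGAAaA
KIF5C: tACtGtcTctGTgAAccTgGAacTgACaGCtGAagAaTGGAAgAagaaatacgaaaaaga

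Among the light chains, which link kinesin-1 to cargo, KLC2 read 3.90 on the crossbred and 4.24 on the Zebu array. The difference was -0.34, with -0.18 and -0.27 at its other probes. By brightest probes the family ranged from -0.34 to 1.38, with a median of 0.18. Over its 7 probes well above background on both arrays the median was -0.18, and 4 of them were below 0. The highest member of the family was KLC3, a light chain found in spermatids, named here after its value of 1.38 from 1 probe was seen. A probe outside the name rule that is described as bovine kinesin light chain 3 read -3.13 and -3.18, a difference of 0.05, and passed the background filter on each array.

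Kinesin-3 motors, most of them vesicle carriers, ranged from -0.84 to 0.46 over 5 genes, with a median of 0.03. The lowest was KIF1C, at 1.01 on the crossbred and 1.85 on the Zebu array. The difference was -0.84, and -0.91 at its second probe. KIF13A was seen on the crossbred array only, at least 1.98-fold higher there. With normexp this bound was 1.32-fold. With quantile normalization the measured difference was 1.61, which counts as a call, while the bound was 2.12-fold.

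KIF11, the kinesin-5 that keeps spindle poles apart, differed by 0.11 at its brightest probe and by -0.21 and -0.22 at the other probes well above background. The kinesin-6 genes of the cleavage furrow differed by -0.19 to 0.49 at their brightest probes, and KIF23, at -0.19, by 0.15 and 0.14 at its others. KIF18A and KIF18B, kinesin-8 motors of chromosome alignment, gave 0.21 and -0.07, and the kinesin-10 gene KIF22 gave 0.35. KIF15, a kinesin-12 that backs up KIF11, was picked out after its values were seen. It read 3.03 and 1.79, a difference of 1.24. From the 5′ end its probes gave -0.14, 0.56, 0.85 and 1.24, a value that grew along the transcript. The minus-end directed kinesin-14 genes KIFC1 and KIFC2 differed by 0.83 and 0.58, and the spots of the KIFC1 probe by 0.38 and 1.28. KIF26B, an atypical kinesin-11, was at least 1.92-fold higher in Zebu testis by the bound, and 1.24-fold with normexp.

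Outside the name rule, 30 probes had the word kinesin in their description. Of these, 19 probes of 12 gene names were named for a kinesin or a partner, 16 passed the background filter on both arrays and 0 were called. They include transcripts described as KIF25, with a difference of 0.74, KIF1B with 0.53 and KIF26A with -0.36, and probes described as KIF1A with -0.46, KIF4A with -0.14 and KIF12-like with -0.26, besides the light chain 3 probe given above. The other 11 were described only by a next best match of 14 to 22 aligned bases and are not given a gene name here. Of these 11, 2 were higher by 1.5, and they are not read as kinesin values. Of all probes, 6.14% were higher and 2.99% lower.

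Related gene lists were read in the same way, each from brightest probes. A list of 17 names holds kinesin partners and CENPE, the kinesin-7 motor of centromeres, which the name rule leaves out. Of these, 14 were on the array, none was called, and the median was 0.03, with CENPE at 0.37 and KIFAP3, the accessory subunit of kinesin-2, at 0.11. Cytoplasmic dynein and dynactin, the minus-end directed transport machinery, had 1 of 22 genes higher, DYNLT3 at 1.61, and a median of 0.16. The division genes had 0 of 24 called and a median of 0.17. Intraflagellar transport genes had 1 of 16 higher, IFT43 at 2.28, and a median of 0.26. Manchette genes had 1 of 9 higher, CLIP1 at 2.13, and a median of 0.43. The central apparatus, where KIF9 works, had 0 of 7 called and a median of 0.67. Beside these counts, 7.12% of all gene names were higher and 2.92% lower by 1.5 or more. In lists this small, 1 called gene is not read as a result about the list. At a difference of 1 or more, 3 of these 7 genes were higher, 2 of the 9 manchette and 2 of the 16 intraflagellar transport genes. At that threshold 1 of the 22 dynein and dynactin genes was higher, 0 of the 24 division genes and 0 of the 14 partners, beside 12.8% of all gene names. Lower by 1 or more was 1 of the 22 dynein and dynactin genes, DYNC1I1 at -1.465, and no gene of the other lists in this paragraph. Of all gene names 8.87% were lower by that much.

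Markers of the cells of the testis also differed between the arrays, and in bulk tissue fewer cells of a type and less RNA per cell cannot be told apart. By the same call, 7.12% of all gene names were higher and 2.92% lower. Spermatid markers were higher for 11 of 16 genes, with a median of 1.73. Their summed linear signal, in units of the 75th percentile of each array, was 664 on the crossbred and 318 on the Zebu array, and PRM1 was the brightest. Spermatocyte markers had 0 of 9 called, a median of 0.41 and sums of 62.8 and 46.5, with TEX101 the brightest. Spermatogonial markers had 1 of 10 lower, SALL4, a median of -0.80 and sums of 31.9 and 45.4, with UCHL1 the brightest.

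The medians of the Sertoli, Leydig and peritubular lists were below 0, and those of the endothelial, macrophage and red blood cell lists above 0. Calls are counted over genes well above background on at least 1 array. Of all gene names so filtered, 7.12% were higher and 2.92% lower. Sertoli cell markers had 1 of 9 lower, a median of -0.90 and sums of 159 and 246. CLU was the brightest, and INHBB was on neither array well above background. Leydig cell markers had 2 of 8 lower, a median of -0.51 and sums of 89.6 and 134, with INSL3 the brightest. Peritubular and smooth muscle markers had 0 of 8 called, a median of -0.73 and sums of 45.0 and 75.4, with ACTA2 the brightest. Endothelial markers had 0 of 8 called, a median of 0.05 and sums of 8.66 and 6.98. EGFL7, with a difference of -0.45, was the brightest by its mean and CLDN5, with 1.33, on the crossbred array, and without CLDN5 the sums were 4.01 and 5.13. Macrophage markers had 1 of 8 higher, a median of 0.20 and sums of 29.0 and 19.8, with C1QA the brightest by its mean and AIF1 on the crossbred array. Red blood cell markers had 1 of 4 higher and 1 lower, a median of 0.21 and sums of 1.91 and 3.02. HBA was the brightest by its mean, and ALAS2 and HBB were on neither array well above background. Without HBA these sums were 1.38 and 0.70. The endothelial and red blood cell lists were the ones where leaving out the gene with the largest change in linear signal turned the order of the sums. The part of these markers in the kinesin differences was not tested.

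**Figure D4:**
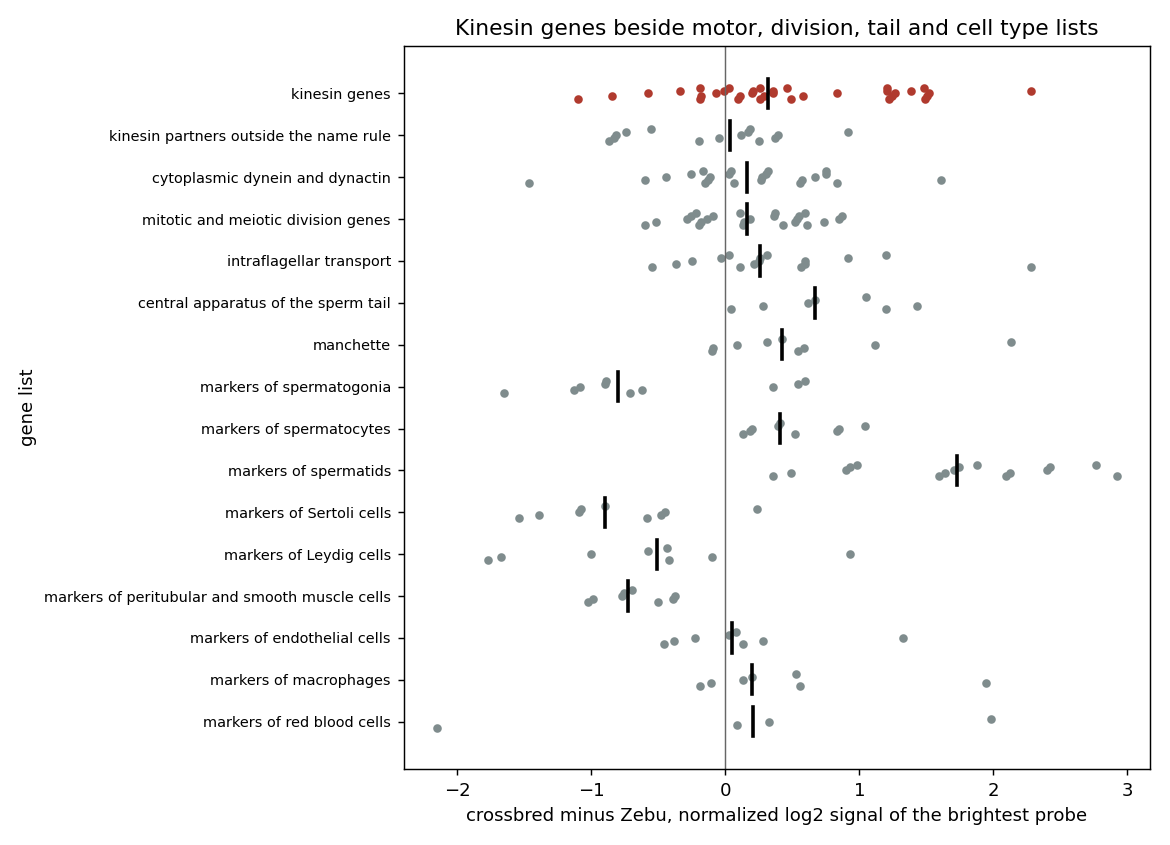
Crossbred minus Zebu difference (normalized log2 signal of the brightest probe) of each gene well above background on both arrays, for the kinesin genes (red) and the other lists (grey), with black bars at the medians. The medians nearest to the kinesin median of 0.32 are those of intraflagellar transport, 0.26, and the spermatocyte markers, 0.41. The division gene and spermatid medians lie at 0.17 and 1.73, and the spermatogonial and Sertoli medians at -0.80 and -0.90.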

How the data were processed

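RNA was pooled from 3 bulls by group and hybridized to 1 array each. Spot intensity was deposited by the authors as Agilent Feature Extraction output, background-subtracted within the array. The deposited value table holds log2 signals that the authors shifted by the 75th percentile. Its columns, with medians of -3.00 and -3.01, matched the values computed here within 0.1 for 98.9% and 99.0% of probes after a constant shift, so scale, centring and direction are known. Here log2 processed signals were averaged across a probe's spots and shifted by the 75th percentile of 51279 probes, after 13 outlier spots and all control spots were left out. No spot was saturated, and 72.0% of crossbred and 74.3% of Zebu spots were well above background.

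A bound sets the bright array against the higher of the dim probe's own signal and the lowest signal well above background. Where a gene had several probes, the one with the highest mean over both arrays was used. Both arrays' values were given for genes with a called probe, spots in a marked patch (row 54 to 99 with column 35 to 46, and row 153 to 167 with column 50 to 56), the 5 largest differences in each direction among genes well above background on both arrays, or several probes that all differ by 1 or more in 1 direction. The members and lists were chosen with earlier results of these data known. Gene names are those of the array, and all 38 symbols are in the RefSeq table of assembly ARS-UCD2.0, whose coordinates were not used. Descending coordinates were read as the minus strand. Transcript order, from the annotated probe starts, matched genome order for 16226 of 16497 neighbouring pairs. Exact distances are less sure, since sequences overlapped as annotated for 979 of 1563 overlapping pairs. Steps were run in Python 3.11.15 with pandas 2.3.3, numpy 2.4.6 and scipy 1.17.1, and normexp in limma 3.58.1 on R 4.3.3. Averaging over spots, the shift, the call and the nearest-spot median were tested on simulated data, with every spot set well above background. The background filter, the bounds, the choice of probe and normexp were not tested in this way.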

Additional observations from a re-analysis of the deposited data

How the results depend on the processing

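Under each alternative that gives a median, the kinesin median stayed above that of all gene names, from 0.26 with normexp to 0.38 with the mean over the probes of a gene. The number of higher kinesin genes, 4, became 2 with the 75th percentile taken over detected probes, those above background on each array. It was also 2 with the mean or the median over the probes of a gene. All gene names higher went from 1762 to 1693, 1634 and 1642 in these settings. With quantile normalization the kinesin count was 3, beside 1727 of all gene names. KIF2B and KIF9 were lost there and KIF13A, dim on the Zebu array, was gained. The kinesin count became 13 at a threshold of 1 and 14 at a linear fold of 1.5, where 2 and 3 genes were lower in place of 0. Of all gene names, 12.8% and 21.4% were higher and 8.87% and 22.2% lower at these thresholds. With dim signals held at their bound, the kinesin counts at 1 were 12 and 1, and those at 1.5 were 4 and 0. After the median of the 18 nearest spots was subtracted, 6 genes and 7 probes were higher, 1 gene was lower, KIF21A at -1.54, beside 1829 higher and 667 lower among all gene names, and KIF4A turned from -0.19 to 0.29. Among the higher probes, the KIF17 probe at 1.28 was gained and the KIF3A probe at 1.60 was lost. The lower probes were again 2, but were other probes of KIF21A. The 5 higher kinesin probes became 3 with the percentile over detected probes, and the 2 lower probes became 1 with normexp. Normexp also took all gene names from 1762 higher and 722 lower to 1030 and 169, and KIF19 from 5.22 to 2.87. The causes were not tested. Among the values of the 12 genes named by rule, 103 differed from the reported value under an alternative, 89 of them by less than the spot SD and 13 by more, and 1 changed sign. Holding dim signals at their bound, taking the probe brightest on either array and leaving out KIF19 were chosen after seeing the data, and the last of these gave 3 higher genes and the probe choice 4. No paired analysis was possible because each group has 1 array. Dim probes, near the background, limit KIF13A, KIF19 and KIF26B to bounds.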
